A study of Mus musculus with 2 samples.

Results

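The section described here is the end of the mouse immunoglobulin heavy chain (Igh) locus that lies farthest from the D segments, chr12:116600001-117350186 in mouse build mm9. It was chosen by position alone: a contact belongs to it when the midpoints of both its fragments lie within these limits and at least 10 kb apart. By this rule 354 of the 10584 forward-reverse pairs of the locus are members, or 3.40% of the 10415 pairs that are at least 10 kb apart. They join 39 of the 206 probed fragments, 19 with a forward and 20 with a reverse primer. Contacts were measured by 5C: chromatin is crosslinked, cut with HindIII and ligated, and ligation products are amplified with primers at fragment ends. A forward primer can pair only with a reverse primer, so pairs of like primers have no value. Both libraries were made from C57Bl/6 splenic B cells that lacked CD43 and had been grown ex vivo with LPS and IL4 for 40 hours. They are the 2 biological replicates of 1 group, as the series calls them, so nothing could be compared between conditions. How many mice stand behind each replicate, and how many B cell clones, is not given in the sources used here.

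The V segments of the Igh locus supply the variable part of the antibody heavy chain, and the distal end is known for its many members of the Ighv1 (J558) family and the interspersed Ighv8 family. In pro-B cells the locus contracts, which brings distal V segments near the D and J segments for recombination, and the factor Pax5 is needed for that step. Some Ighv8 segments have intergenic elements beside them that bind Pax5 and CTCF in pro-B cells. Mature B cells have finished V(D)J recombination, and LPS with IL4 directs them to class switching at the other end of the locus. A rearranged allele has lost the DNA between the V segment it uses and the D segment, so the cells of a population differ in what is left of the V region, and this was not measured here. No mm9 gene annotation was used, so the distal V label could not be checked against genes and fragments are given by number and position.

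The fragments cover the section unevenly. Their lengths run from 1213 to 10218 bp (median 2952), and together they cover 18.6% of the 750.2 kb. They begin with forward fragment 624 (chr12:116605743-116610576) and end with reverse fragment 851 (chr12:117346620-117350186). The widest unprobed gaps are 98.9 kb above reverse 733, 74.6 kb above forward 792 and 74.1 kb above forward 769. At the 5′ end of the locus 16 fragments follow each other with gaps under 10 kb, from forward 817 (chr12:117278387-117288604) to reverse 851, within 71.8 kb. These are called the end cluster below. So 16 of the 39 fragments report on 71.8 of the 750.2 kb.

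Nearly every contact of the section was detected. A count above 0 was recorded for 353 pairs in replicate 1 and 354 in replicate 2, so 353 (99.7%) had it in both. Among all tested Igh pairs, which include pairs farther apart than any in the section, the share was 96.5%. The pair at 0, forward 828 with reverse 628, had an expected count of 75.4 in replicate 1, and a count of 0 allows up to 3 counts. The median count of a pair was 78.5 in replicate 1 and 181.5 in replicate 2. Taken as single counts, values of this size have exact 95% Poisson ranges of 62.1 to 97.9 and 156.1 to 209.9. They are not ranges for the median over pairs. In both replicates 311 pairs held 10 or more. These ranges cover counting error only, since PCR copies of 1 molecule cannot be told from separate molecules. The libraries held 14503618 and 17658603 counts in all. The section pairs took 477574 and 666589 of them, or 15.5% and 12% of the counts at 10 kb or more. Another 26 section pairs closer than 10 kb took 17.2% and 13.7% of all counts and are not members. Just outside the limit, forward 702 with reverse 705 at 9.77 kb held 30 and 739 counts, forward 850 with reverse 845 at 9.64 kb held 10885 and 14399, and forward 842 with reverse 845 at 9.26 kb held 35659 and 42235. Just inside it, forward 842 with reverse 834 at 10.8 kb held 2468 and 2494, forward 832 with reverse 840 at 11.4 kb held 8677 and 11962, and forward 837 with reverse 831 at 11.8 kb held 5994 and 6215. At the lower border the next probed fragment is forward 611, whose midpoint lies 39.7 kb below the section. Its median ratios (defined next) with section fragments were 0.817 and 0.812.

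Most contacts of the section stood below the mean level of their distance, and a few stood far above it. The expected count of a pair is the value at its distance of a smooth curve through all Igh pairs, and the ratio is the observed over the expected count. The median ratio of the section was 0.304 in replicate 1 and 0.274 in replicate 2, while the mean ratio was 1.10 and 0.918. The level depended on how the expected count was made: the mean of the replicates' medians was 0.289, but 0.639 after primer correction and 1.15, above the expected level, with a curve fitted on log2 counts. Before primer correction the 3737 other Igh pairs within the same range of distances had median ratios of 0.265 and 0.262, so a median below 1 was not particular to the section. In both replicates the ratio exceeded 1 for only 21 section pairs (5.93%), against 10.8% of those other pairs. Counts were concentrated: the 2 pairs with most counts held 63.3% and 51.4% of the counts of the section, and the 10 with most held 80.2% and 73.0%.

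Counts dropped with distance in both replicates. Over 8 bins of pairs, log10 of the mean count changed per unit of log10 distance by a slope of -1.43 and -1.41, or -1.42 ± 0.01 (SD, n = 2). Over the rest of the locus in the same range, with called pairs kept, it was -1.24 ± 0.09. Without the pairs called in both replicates the slope of the section was -1.25 ± 0.002. The median count was 1335 and 2551 between 10.8 and 35.0 kb, and 344.5 and 668.5 between 35.9 and 103.2 kb. Replicate 1 then did not drop steadily: its median was 64.5 for pairs of 104 to 185.8 kb and 97 for 189.2 to 268.2 kb. It was 20.5 for 403.5 to 467.4 kb and 64 for the farthest bin, 563.1 to 740.2 kb. Replicate 2 had 300.5, 238.5, 52.5 and 85 in these bins. The lowest median of both replicates thus lay between 403.5 and 467.4 kb and not at the longest distances. In the rest of the locus the bin at these distances had medians of 48 and 87 and the farthest bin 33 and 67, the lowest in both replicates. Primer correction divides out the general level of each primer. After it the section's median ratio between 403.5 and 467.4 kb was 0.592 and 0.437, and in the farthest bin 0.925 and 0.576. Between 35.9 and 103.2 kb it was 0.498 and 0.437, and between 104 and 185.8 kb 0.475 and 0.457. The bin from 403.5 to 467.4 kb was thus not the lowest in replicate 1 after correction.

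**Figure D1:**
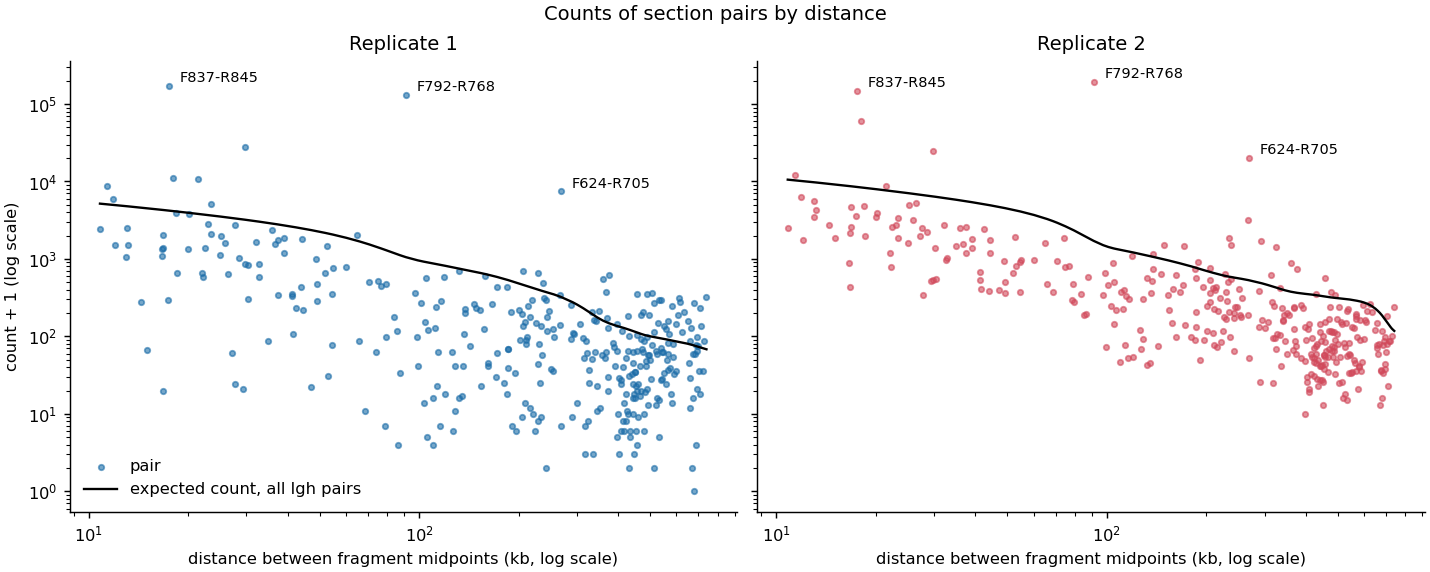
Counts plus 1 of the 354 section pairs against the distance between fragment midpoints, both on log scales, for replicate 1 (left) and replicate 2 (right); the line is the expected count from all Igh pairs at least 10 kb apart. Most points lie under the line, with median ratios of 0.304 and 0.274, and the 3 labelled pairs (F, forward; R, reverse) lie far above it.

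A pair was called when its excess over the expected count had q under 0.01 in both replicates, by a Weibull fit to the distance-scaled residuals of all Igh pairs with Benjamini-Hochberg adjustment. The section held 2 such pairs, 0.565% of its pairs, against a background of 0.24% of all tested pairs (25 of 10415) and 0.214% of the other Igh pairs in the same range of distances (8 of 3737). Replicate 1 alone called 3 section pairs (background 0.432%) and replicate 2 alone 2 (background 0.374%). With counts this small, the shares are given as a description. With the expected counts fitted on log2 counts neither pair was called (q of 0.123 and 0.581 in replicate 1, Weibull fit). The called pairs held 29.2% and 32.3% of all counts of the section. Other called pairs of the locus had a single fragment in the section and a partner outside it. Each of the 19 forward fragments had 88 tested pairs with outside partners, and each of the 20 reverse fragments 79. What share of these tested pairs was called was not computed, and the called ones are not read as an excess over the background.

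The strongest contact joined forward fragment 792 (chr12:117189453-117190694) to reverse fragment 768 (chr12:117095670-117102068), 91.2 kb apart. It held 131899 counts in replicate 1 and 194954 in replicate 2, with ratios of 125 and 114 (mean 119.7 ± 7.88, SD, n = 2). Its q was 4.95e-30 and 2.22e-18 (Weibull fit across all pairs, Benjamini-Hochberg). Primer correction brought the ratios to 33.3 and 18.9, still called. A setting chosen after seeing the data left called pairs out of the primer means and of the refitted curves for count and SD. The ratios were then 59.1 and 26.5, higher than with called pairs kept. Yet q was 0.0529 and 0.674 from the Weibull fit, which still used all pairs, and the call was lost. Among the section pairs of forward 792 the next by mean ratio, with reverse 686 at 376.3 kb, held 624 and 749 counts and had ratios of 4.27 and 2.06. Primer correction brought these to 0.651 and 0.357. Outside the section forward 792 had another called partner, reverse 374, with ratios of 17.0 and 20.6. The called pair made up 96.6% and 96.5% of the counts of forward 792 in the section, and 89.7% and 73.7% of those of reverse 768.

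The fragments beside this pair did not share its level. Of its flanking pairs, reverse 768 with forward 817, the next forward fragment above forward 792, held 438 and 743 counts (ratios 0.815 and 0.958). Forward 792 with reverse 733, the next reverse fragment below reverse 768, held 246 and 429 (0.558 and 0.663). The other flanking pairs, forward 792 with reverse 788 and forward 769 with reverse 768, lie under 10 kb and are no members. They held 1005 and 4386, and 390 and 5531 counts. Other fragments nearby carry the opposite primers: forward 769 (chr12:117102069-117108895) abuts reverse 768, and reverse 788 (chr12:117183045-117185079) lies 4.37 kb below forward 792. Forward 769 with reverse 788, at 78.6 kb, held 6 and 291 counts, ratios of 0.00455 and 0.122. This pair of neighbouring fragments was chosen after its values were seen, and it is not a second reading of the called pair. Reverse 788 had the lowest median ratio of all section fragments. Forward 769 had medians of 0.0997 and 0.266, in replicate 2 near the 0.274 of the whole section. After primer correction the pair had 0.285 and 0.736. The high level of forward 792 with reverse 768 was recorded in both replicates. No other primer combination reads these fragments, and what part the primers had was not tested.

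The other called pair joined the lower border of the section to its middle, forward 624 with reverse 705 (chr12:116875021-116877871), 268.3 kb apart. It held 7482 counts in replicate 1 and 20308 in replicate 2, with ratios of 23.2 and 38.2 (30.7 ± 10.6, SD, n = 2) and q of 0.00506 and 1.06e-06 by the same fit. Primer correction gave 20.8 and 16.7, and the call held. With expected counts from a smoother curve (span 0.6) q was 0.0264 in replicate 1, and the call was lost. The flanking pairs were low on the side of forward 624: with reverse 695 it held 175 and 239 counts (0.472 and 0.418), and with reverse 713 it held 92 and 131 (0.325 and 0.264). Forward 634 (chr12:116640887-116643838) with reverse 705, at 234.1 kb, held 135 and 1878 counts, ratios of 0.347 and 3.19, so that this neighbour was raised in replicate 2 only. Reverse 705 as a whole was higher in replicate 2, with a median ratio of 0.101 in replicate 1 and 0.321 in replicate 2. Other fragments nearby carry the opposite primers. Reverse 628 lies 11.7 kb above forward 624. Forward 702 lies 6.65 kb below reverse 705, and forward 712 lies 14.0 kb above it. Forward 702 and forward 712 with reverse 628 held 1 and 64, and 6 and 51 counts (chosen after their values were seen). Those ratios, 0.00268 and 0.111, and 0.0186 and 0.0960, lie below the section's median. The median ratios of reverse 628 with its section partners were 0.0729 and 0.223, and forward 702 and forward 712 were among the 3 lowest fragments. Corrected ratios were 0.102 and 0.222, and 0.538 and 0.574.

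**Figure D2:**
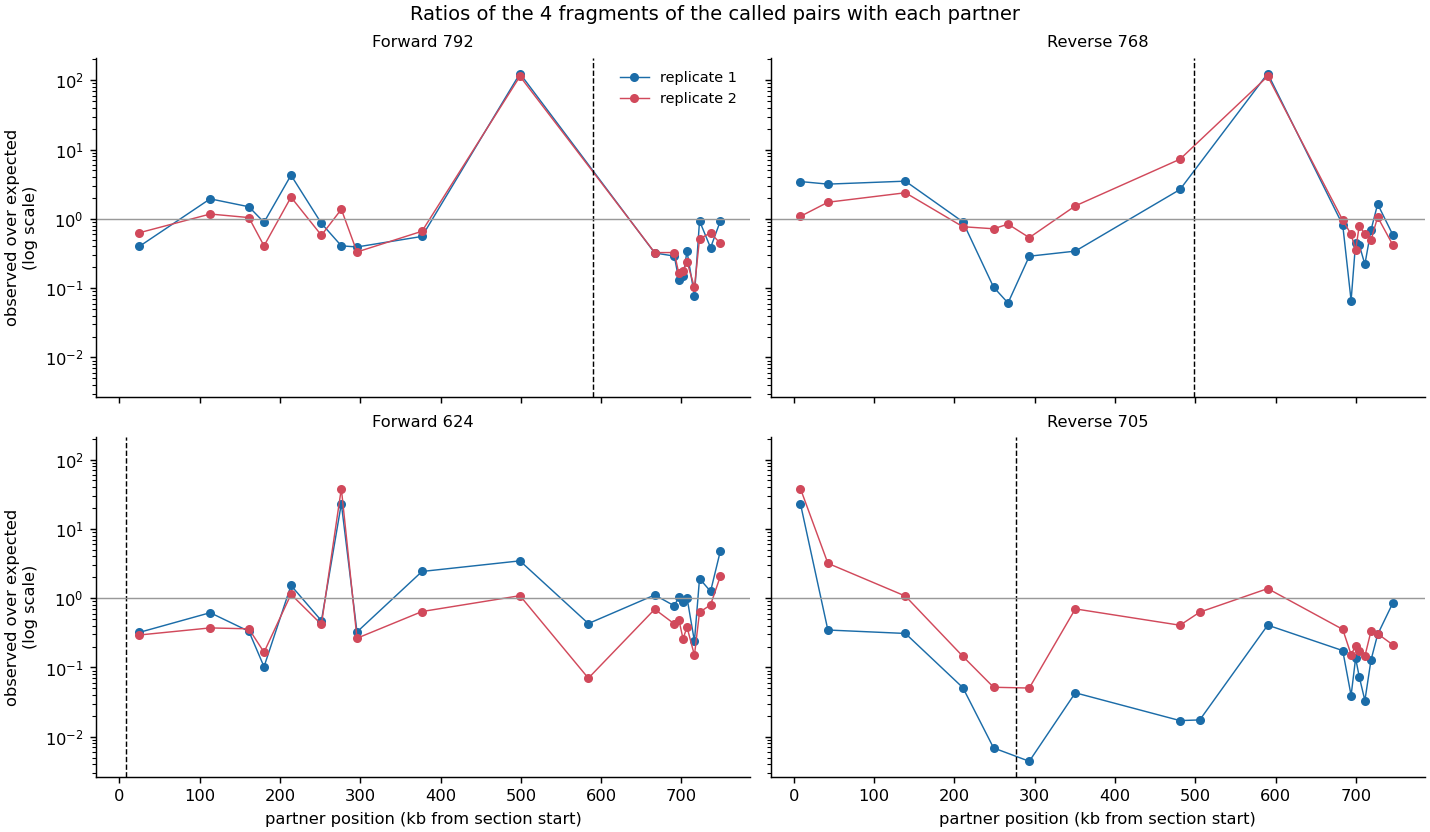
Observed over expected ratio (log scale) of the 4 fragments of the called pairs with each partner in the section, against the partner's position in kb from the start of the section; the dashed line marks the fragment itself, the grey line a ratio of 1, and colours the replicates. Each called pair is a single point far above its neighbours, at 125 and 114 for forward 792 with reverse 768 and at 23.2 and 38.2 for forward 624 with reverse 705.

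At the 5′ end a short contact reached similar counts but was called in replicate 1 alone. Forward 837 (chr12:117317889-117319542) with reverse 845 (chr12:117334454-117337990), 17.5 kb apart, held 170447 and 147766 counts. Its ratios were 40.5 and 17.4, with q of 2.18e-10 and 0.179 (same fit). It was the pair with most counts in replicate 1. After primer correction the ratios were 23.3 and 21.0 and the pair was called in both (q 0.00525 and 0.00056, Weibull fit), 1 of 3 such section pairs against a background of 0.317%. It was also called in both with span 0.6 (q 5.69e-12 and 0.00538, same fit). With primer means and refitted curves taken without called pairs it was not called (q 0.755 and 0.674, same fit). Forward 837 also formed the pair that came next by mean ratio, with reverse 851 at 29.7 kb: 27759 and 24737 counts, ratios of 8.64 and 3.85. Nearby pairs of similar length had lower ratios. Forward 842 with reverse 851, at 21.4 kb, had 2.84 and 1.13, forward 850 with reverse 840, at 23.4 kb, had 1.38 and 0.466, and forward 832 with reverse 845, at 25.1 kb, had 0.567 and 0.701. These 3 were taken for comparison with their values known. Within the end cluster the 44 pairs had median ratios of 0.462 and 0.347, and its 184 pairs with other section fragments had 0.333 and 0.220.

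The remaining pairs among the 10 with the highest mean ratio had mean ratios under 5. Those of forward 764 differed most between replicates. Forward 764 (chr12:117080054-117081675) with reverse 768, at 18.0 kb, held 11014 and 60921 counts, ratios of 2.65 and 7.26. Forward 764 with reverse 686 (chr12:116811074-116816454), at 267.1 kb, held 345 and 3157, ratios of 1.06 and 5.92, a difference larger than the lower value. Reverse 768 appeared again with forward 661 at 360.0 kb (556 and 897 counts, ratios 3.50 and 2.38) and with forward 634 at 456.5 kb (353 and 567 counts, 3.17 and 1.74). Of the 21 pairs with a ratio above 1 in both replicates before primer correction, 6 contained reverse 768. Forward 624, forward 634, forward 792 and reverse 851 were each in 4, and reverse 686 was in 3.

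The longest contacts of the section joined its borders. Forward 624 with reverse 851, the outermost fragments, lie 740.2 kb apart and held 322 and 242 counts, ratios of 4.79 and 2.07. Forward 624 with reverse 845, at 728.1 kb, held 86 and 100 counts (1.25 and 0.800), and forward 850 with reverse 628, at 720.9 kb, held 35 and 87 (0.503 and 0.660). None of these was called. After primer correction the outermost pair had 0.766 and 1.12, below and above the expected level.

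**Figure D3:**
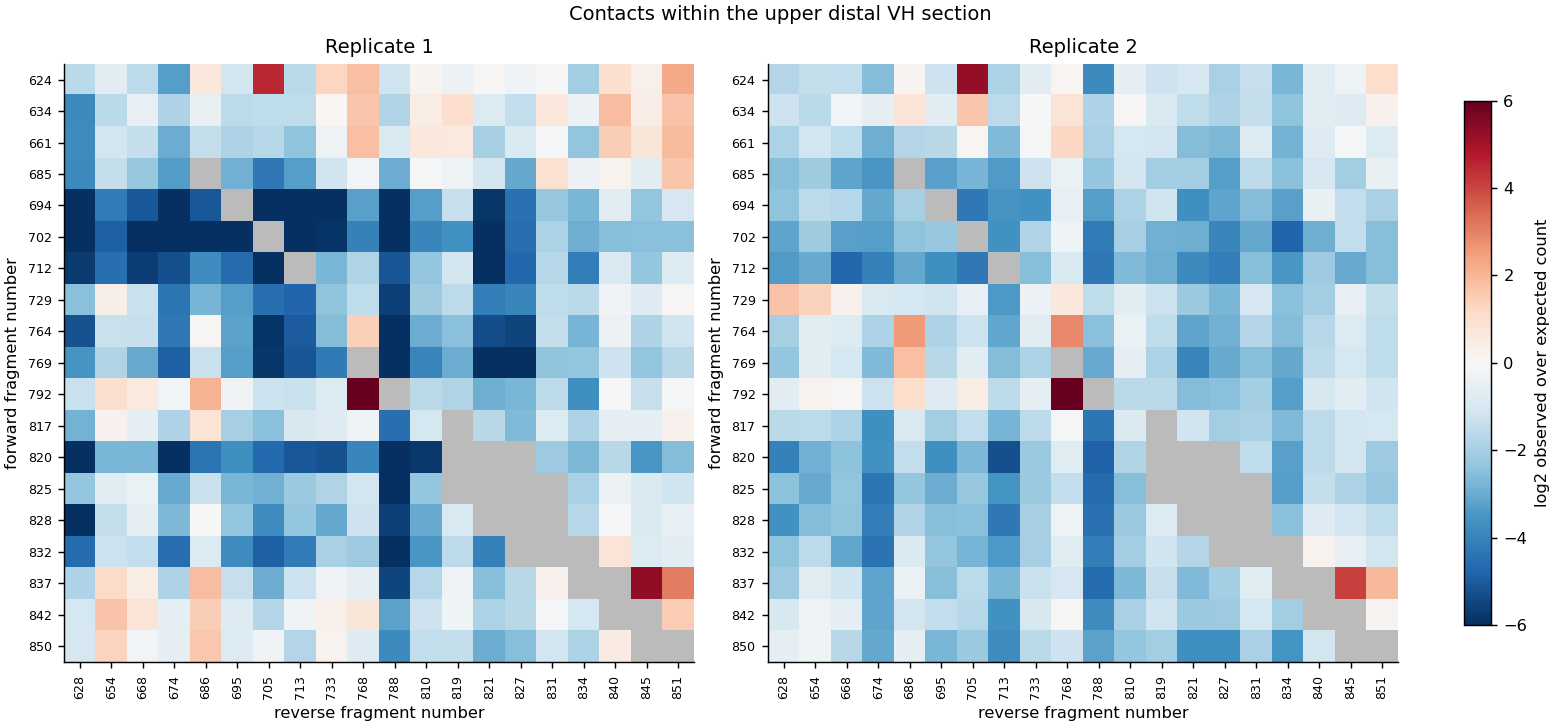
Map of log2 observed over expected count for each forward fragment (rows) with each reverse fragment (columns) in order along the section, for replicate 1 (left) and replicate 2 (right); grey cells are pairs under 10 kb, and values beyond the ends of the colour scale take its end colours. Blue prevails in both maps, forward 702 and reverse 788 (median ratios 0.0335 and 0.132, and 0.0213 and 0.0715) stand out as deep blue lines, and forward 792 with reverse 768 is the deepest red cell.

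How strongly a fragment contacted the section varied widely between fragments. All 39 had a median ratio below 1 in both replicates, from 0.0213 to 0.946 in replicate 1 and from 0.0715 to 0.819 in replicate 2. With a curve fitted on log2 counts this did not hold: reverse 851 had a median ratio of 3.26 and reverse 768 of 2.88 (means of the replicates), while reverse 788 stayed below 1 at 0.194. The highest medians belonged to reverse 768 (0.639 and 0.819), forward 624 (0.946 and 0.422), forward 634 (0.730 and 0.611), reverse 840 (chr12:117320324-117324621, 0.864 and 0.466) and reverse 851 (0.826 and 0.406). The lowest belonged to reverse 788 (0.0213 and 0.0715), forward 702 (chr12:116864979-116868374, 0.0335 and 0.132) and forward 712 (chr12:116891916-116894434, 0.0561 and 0.119). In counts, the median over the pairs of reverse 788 was 14.5 and 69, and over those of reverse 768 it was 243.5 and 465. Neighbours could differ: reverse 788, the lowest, lies beside forward 792, which had 0.408 and 0.515.

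These levels followed the fragments outside the section too. Across the 39 fragments, the median ratio within the section and the median ratio with the rest of the locus, which the rule did not use, had a Spearman rho of 0.914 in replicate 1 and 0.911 in replicate 2. The values share the primer and the library, so this describes the fragments and is no test. Fragment length had a rho of 0.172 and 0.378 with the median ratio. After primer correction the medians narrowed. Reverse 788 then had 0.866 and 0.602 and reverse 768 0.967 and 0.759. The lowest were reverse 705 (0.220 and 0.231), forward 702 (0.236 and 0.222), reverse 819 (0.282 and 0.170) and forward 792 (0.275 and 0.203). Each of these 4 belongs to a called pair somewhere in the locus, and the primer means include called pairs. Other fragments with a called partner were not among the 4 lowest. Besides reverse 768 these were forward 624 (0.676 and 0.582), reverse 810 (0.633 and 0.588), forward 685 (0.604 and 0.430) and reverse 831 (0.536 and 0.337). What part called pairs had in the corrected medians was not tested. Forward 842 has a called partner too, and its corrected median was 1.20 in replicate 1 and 0.549, that of the whole section, in replicate 2. These fragments were named after their values were seen.

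**Figure D4:**
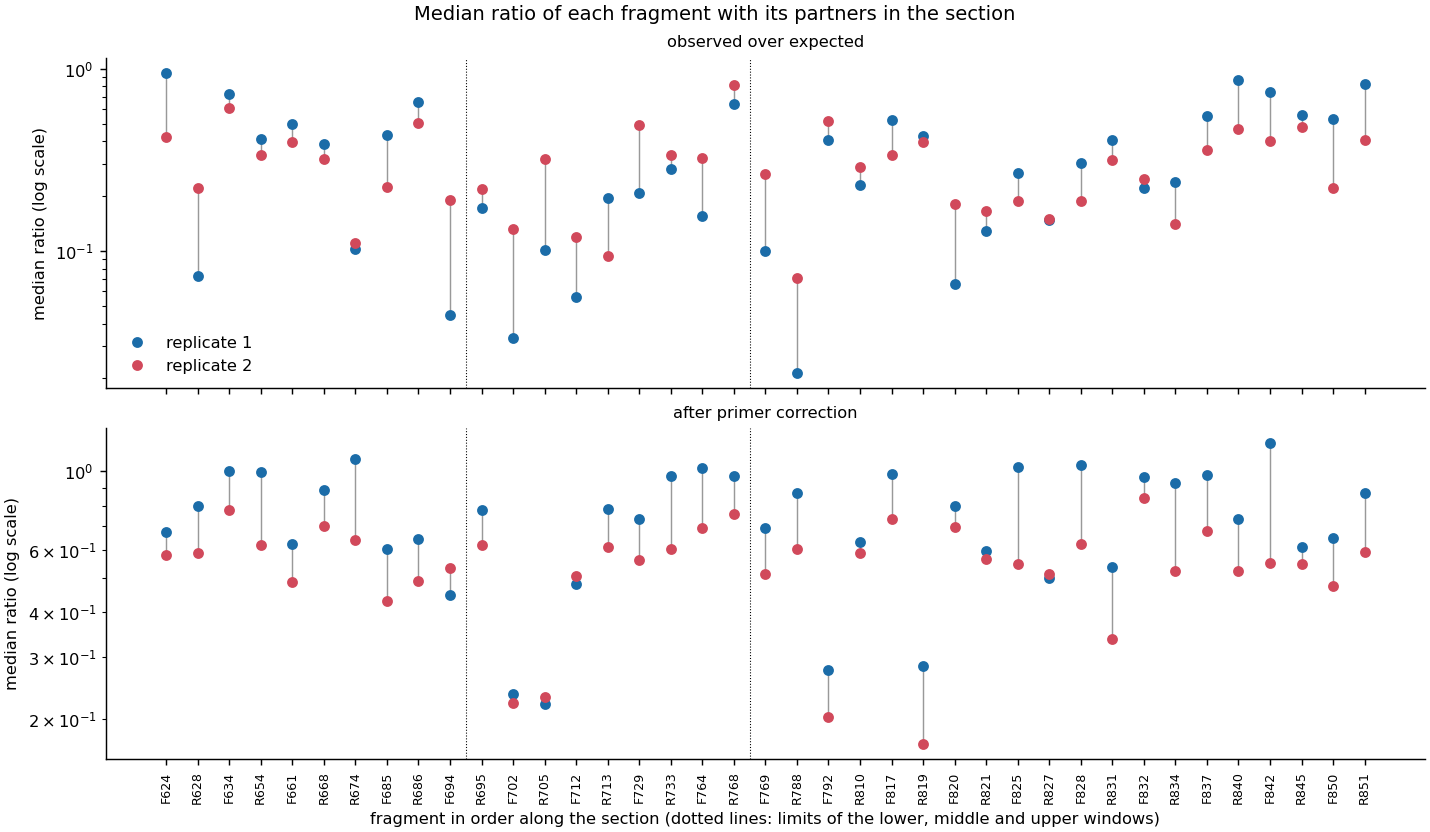
Median ratio (log scale) of each fragment with its partners in the section, for observed over expected counts (top) and after primer correction (bottom), with fragments in order along the section and the replicates as points joined by a line. Before correction the medians run from 0.0213 to 0.946, and forward 702, reverse 705, forward 792 and reverse 819 stand lowest after it.

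Some fragments kept most of their distant contacts inside the section. Of all counts at 10 kb or more, forward 837 had 96.7% and 97.6% inside it, where the expected counts gave 80.4% and 87.5%. Reverse 768 had 95.5% and 93.8% (expected 65.7% and 71.7%), and forward 792 had 91.1% and 90.9% (61.4% and 67.6%). Only 7 fragments had a larger share inside than expected in both replicates, and 28 had a smaller share in both. Forward 685 had 12.8% and 12.2% inside (expected 68.0% and 73.0%), and forward 702 had 13.8% and 11.5% (70.3% and 75.3%). Both have a called partner below the section. The choice of these fragments followed their values, and single pairs dominate the shares.

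The section was cut into 3 windows of equal length to see where its contacts lay: a lower window with 10 fragments, a middle window with 9 and an upper window with 20, which includes the end cluster. The lower and upper windows, the most distant combination, had a median ratio of 0.620 in replicate 1 and 0.328 in replicate 2 over 100 pairs. The middle and upper windows had 0.211 and 0.216 over 89 pairs, and the lower and middle windows 0.182 and 0.376 over 44. Within windows, the lower had 0.241 and 0.302 (24 pairs), the middle 0.0521 and 0.347 (18 pairs) and the upper 0.311 and 0.258 (79 pairs). In replicate 1 the lower and upper windows thus had the highest median and the middle window the lowest, while in replicate 2 the combinations differed much less. After primer correction the lower and upper windows had 0.941 and 0.564, and the middle window 0.592 and 0.569. No order of the 6 combinations held in both replicates, and none is drawn.

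Before primer correction the replicates differed most in the middle window. There 8 of 9 fragments had a higher median ratio in replicate 2, and the median of replicate 2 over replicate 1 was 2.08 over the 9 fragments. All fragments between the middle window and the end cluster were higher in replicate 2 too, from 1.26 at reverse 810 to 3.36 at reverse 788. In the end cluster 12 of 16 fragments were higher in replicate 1, and the median of replicate 2 over replicate 1 was 0.672. In the lower window 7 of 10 were higher in replicate 1. Forward 694, at its upper edge, ran the other way, with medians of 0.0444 and 0.190. Primer correction changed the direction in the middle window. All its fragments but reverse 705 (0.220 and 0.231) and forward 712 (0.480 and 0.506) then had the higher median in replicate 1. So did the whole section (0.728 and 0.549). Across pairs, ratios had a Spearman rho of 0.652 between replicates (0.779 for the rest of the locus in the same range), and after primer correction 0.666 (0.673). Pairs share primers and are not independent, so no p is given. Of 353 pairs with counts in both, 159 (45.0%) agreed within 2-fold, 64 had a ratio over 4-fold higher in replicate 2 and 18 over 4-fold higher in replicate 1. Within the middle window the median count was 70.5 in replicate 1 and 468.5 in replicate 2. The library totals, 14503618 and 17658603, differed less. What made the replicates differ was not tested.

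Compared with other stretches, the section was near the level of the locus. Its log2 median ratio exceeded that of the 3737 other Igh pairs in the same range by 0.20 in replicate 1 and 0.06 in replicate 2 (mean 0.13 ± 0.09, SD, n = 2). After primer correction the difference was 0.24 and -0.26, so its direction depended on the replicate. Of the 3 stretches of the same length below it, the adjacent (chr12:115849815-116600000, 196 pairs) had medians of 0.210 and 0.433. The next (chr12:115099629-115849814, 786 pairs) had 0.141 and 0.206, and the lowest (chr12:114349443-115099628, 1438 pairs) 0.403 and 0.277. With 2 replicates an exact permutation test cannot give a two-sided p below 0.5, so these differences were not tested.

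For the insulation score of a fragment, pairs with a fragment on each side of it, at most 250 kb away, were averaged, and the log2 of their mean ratio was taken. Here a low score marks a position that few contacts cross. Scores were lowest at forward 764 (-2.03 and -1.83) and reverse 768 (-1.78 and -1.96), 480.9 and 498.9 kb into the section, and nearly as low at forward 817 (-1.82 and -1.79). The place of the minimum depended on the setting: it was forward 817 after primer correction, with a window of 500 kb or with expected counts from section pairs alone, and forward 694 with a window of 100 kb. Between them, forward 769 had 0.98 and 0.84 and reverse 788 had 1.67 and 1.55, the peak of the upper part. That peak came from the called pair of forward 792 and reverse 768, which spans both: without called pairs their scores were -1.59 and -1.74, and -1.31 and -1.33. Then every fragment from forward 764 to forward 832 scored below -1 in both replicates. In the lower window scores lay above 0 in replicate 2 with all pairs, from 0.84 at reverse 686 to 2.24 at forward 624, where the spanning pairs include partners below the section. In replicate 1 they ran from -0.04 at forward 694 to 1.36 at forward 634. Without called pairs they ran from -1.66 to 0.25 in replicate 1 and from -0.69 to 1.82 in replicate 2, so that scores above and below 0 occurred in both. After primer correction forward 764 had -0.46 and -1.03. At the very end few pairs are left, 9 for forward 850 and none for reverse 851.

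**Figure D5:**
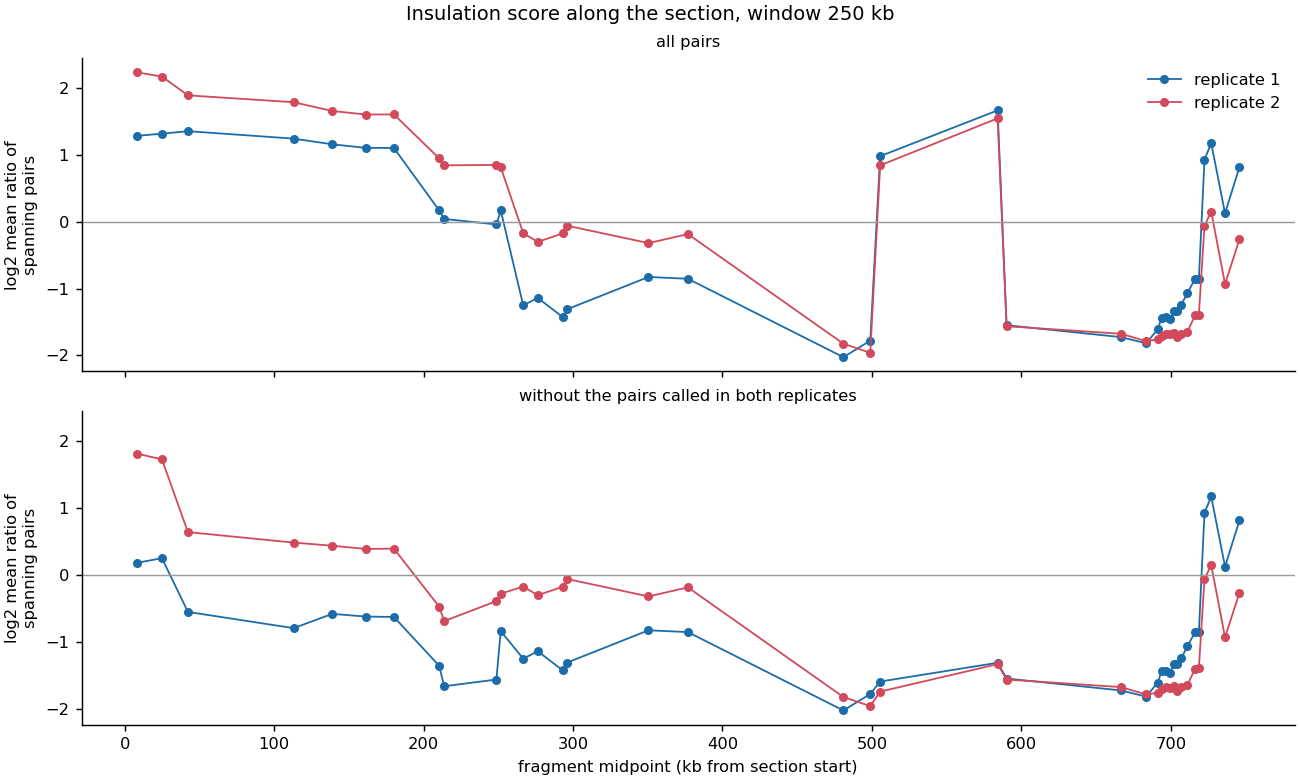
Insulation score (log2 mean ratio of spanning pairs, window 250 kb) of each section fragment against its position in kb from the section start, with all pairs (top) and without the pairs called in both replicates (bottom), coloured by replicate. The peak at forward 769 and reverse 788, up to 1.67, is absent in the lower plot, where both replicates are below -1 from forward 764 to forward 832.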

How the data were processed

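5C counts were analysed for 2 biological replicates of 1 group. The authors deposited 1 matrix of raw counts per replicate, forward by reverse primer, not scaled to depth. Novoalign and build mm9 are named per the submitters' processing notes, and a step called transpurge per the file headers. Library totals were 14503618 and 17658603.

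Expected counts came from a lowess curve (span 0.3) of count on log10 distance over the 10415 Igh pairs at least 10 kb apart. Residuals divided by a lowess SD gave Weibull p-values, adjusted by Benjamini-Hochberg, and a pair was called at q under 0.01 in both replicates. The test measures pairs against their distance within a library, not samples. Primer correction divided counts by primer factors over 50 rounds and refitted the curve. Scripts were tested on simulated data. Fits ran in Python 3.11.15 with statsmodels 0.14.6, SciPy 1.17.1, NumPy 2.4.6 and pandas 2.3.3; plots used matplotlib 3.10.9.

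Named are the called pairs and their flanking pairs, the 10 pairs with the highest mean ratio, the 3 farthest apart, the 5 fragments with the highest and 3 with the lowest median ratio, and the outermost fragments. Members and rules were chosen with earlier results of these data known. Alternatives were curve span, scale, primer correction, distance and count minimums, thresholds, window sizes and leaving out each replicate.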

Additional observations from a re-analysis of the deposited data

How the results depend on the processing

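With 2 replicates of 1 group, no result has a test over samples. No paired analysis was possible because there is only 1 group. Leaving out each replicate gave 2 to 3 calls, a mean ratio of 0.918 to 1.10, a median ratio of 0.274 to 0.304, a difference from the rest of the locus (log2) of 0.06 to 0.20, a slope of -1.43 to -1.41, a range over windows of 0.80 to 3.57 (2.19 in the mean), a lowest insulation score of -2.03 to -1.96 and 353 to 354 detected pairs. Primer correction moved the median ratio to 0.639, the lowest score to -0.91 (at forward 817) and the difference from the rest to -0.0077, which reverses it. That difference was 0.0234 with span 0.1, 0.243 at 10 to 300 kb and 0.0196 with 10 or more counts. Expected counts fitted on log2 counts gave 0 calls (5 pairs at an unadjusted Weibull p under 0.05 in both replicates), a mean ratio of 4.27, a median ratio of 1.15 and a lowest score of -0.18, and put the 5 highest fragment medians above 1 (2.00 to 3.26). They also turned the log2 median of 4 window combinations positive: lower with lower 0.49, lower with middle 0.16, lower with upper 0.43 and upper with upper 0.57. Means in place of medians turned lower with middle to 0.39 and middle with upper to 0.72. A curve from section pairs alone gave a median ratio of 0.350 and a lowest score of -1.63 (at forward 817). At forward 764 the lowest score was -1.73 with span 0.1 and -2.15 with span 0.6. It moved to forward 694 with a window of 100 kb (-3.81) and to forward 817 with 500 kb (-1.57). A threshold of q under 0.001 left 1 call. The slope was -1.36 from 20 kb, -1.24 with 10 or more counts and -1.04 from medians. The following settings were chosen after seeing the data. Primer means and refitted curves taken without called pairs gave 1 call. Leaving out called pairs gave a mean ratio of 0.590 and a slope of -1.25. Leaving out forward 837 with reverse 845 gave a slope of -1.31. The causes were not tested. Some pairs had low counts: 43 of 354 held under 10 counts in a replicate. The lowest count was 0 in replicate 1 and 9 in replicate 2.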
